A study of Mus musculus with 8 samples.

Results

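The nuclear genes for the subunits of the mitochondrial respiratory chain were compared between bone marrow LSK cells of 4 control mice and of 4 mice that had lost Msi2 by conditional knockout (KO). Msi2 codes for Musashi-2, a protein that binds RNA. The LSK gate keeps marrow cells without lineage markers and with Sca-1 and Kit, among which are blood stem cells and the first progenitors. Control mice were labelled WT and KO mice Msi2KO, the arrays were Affymetrix mouse arrays of biotin-labelled RNA, and the Cre line, age and sex of the mice are not given in the sources used here. Members were chosen by gene symbol: Nduf followed by a, b, c, s or v (complex I), Sdha to Sdhd (complex II), Uqcr and Cyc1 (complex III), Cox4 to Cox8 (complex IV) and Atp5 (complex V). These symbols took 91 of the 18193 genes named on the array, of which 83 are subunits and 8 are the Ndufaf assembly factors, which are described with the other assembly factors. Of the 83 subunits, 79 were measured, among 10720 measured genes, while Cox4i2, Cox7b2, Cox8b and Ndufa4l2 were listed at 0 on all 8 arrays. Each gene was represented by its probe set with the highest mean, and all values are log2 signals. Ndufs6 and Ndufa11 lay only on probe sets that carry several gene names and, like Cox7b, were not analysed here. The subunits encoded by mitochondrial DNA do not fall under the rule.

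The respiratory chain sits in the inner membrane of the mitochondrion. Complex I takes electrons from NADH and complex II from succinate, both pass them through ubiquinone to complex III, and cytochrome c carries them on to complex IV, where oxygen is reduced. Complexes I, III and IV pump protons, and complex V, the ATP synthase, uses the resulting gradient to make ATP. Blood stem cells are known for a low use of this pathway compared with the dividing progenitors that arise from them.

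The Msi2 signal was uneven between the KO arrays. By its brightest probe set, Msi2 KO 1 to Msi2 KO 4 read 88.9%, 79.2%, 14.3% and 44.9% of the control average. The controls themselves ran from 90.9% to 108%. The difference was -1.12 ± 0.50 (SE; limma adjusted p 0.442). The sources used here do not say whether this probe set lies in the deleted part of the gene. Its signal may therefore not measure the loss of Msi2. Xist RNA, made by an inactive X chromosome, read 4.79 to 5.55 on 3 arrays (Msi2 KO 1, Msi2 KO 2 and control 1) and 11.92 to 12.51 on the other 5. Eif2s3y, a gene of the Y chromosome, read 8.05 to 8.14 on the low-Xist arrays and 3.36 to 3.62 on the others. The Xist classes thus had the readings of male and female cells. The KO arrays with most Msi2 signal were also the KO arrays with low Xist, and the part of either cannot be told apart. Msi2 KO 3 stood apart on the first principal component of all genes (50.5). Kit was measured at 8.39 to 9.19 on the 8 arrays, and no probe set of 1 name was matched for Ly6a, which encodes Sca-1. Of the lineage markers, Cd3e, Cd4, Cd8a, Cd79a and Itgam were listed at 0, while Cd79b (7.18 to 8.19), Vpreb1 (6.02 to 8.97), Nkg7 (9.47 to 10.34), Lyz2 (9.21 to 10.77) and Mpo (12.58 to 13.00) were measured.

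Subunit transcripts were slightly higher in Msi2 KO than in control cells, in all 5 complexes and for most members. Of the 79 measured subunits 69 had a higher mean in KO, where 50.4% of all genes did, and 10 a lower one. All members were read on the same 4 KO and 4 control arrays and are not independent of one another. Counts of members are therefore not counts of replicates. The median difference was 0.17 (1.12-fold), with quartiles of 0.05 and 0.29 and extremes of -0.16 and 0.75, while over all 10720 genes the median was 0.00 with quartiles of -0.17 and 0.18. No subunit passed limma's test across all genes after Benjamini-Hochberg adjustment at a threshold of 0.05, nor did any gene (0% of genes called, smallest adjusted p 0.176 over all genes and 0.226 over the subunits). At an unadjusted p under 0.05, limma gave 9 subunits higher (11.4% of the 79; background 5.74% of genes) and 0 lower (background 5.66%). The 4 KO arrays all lay above the 4 controls for 14 subunits (17.7%; background 3.63%) and all below them for 1, Atp5h (1.27%; background 3.48%). In RNA from a cell pool, a different mix of cell types and a different amount of RNA per cell cannot be told apart.

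**Figure D1:**
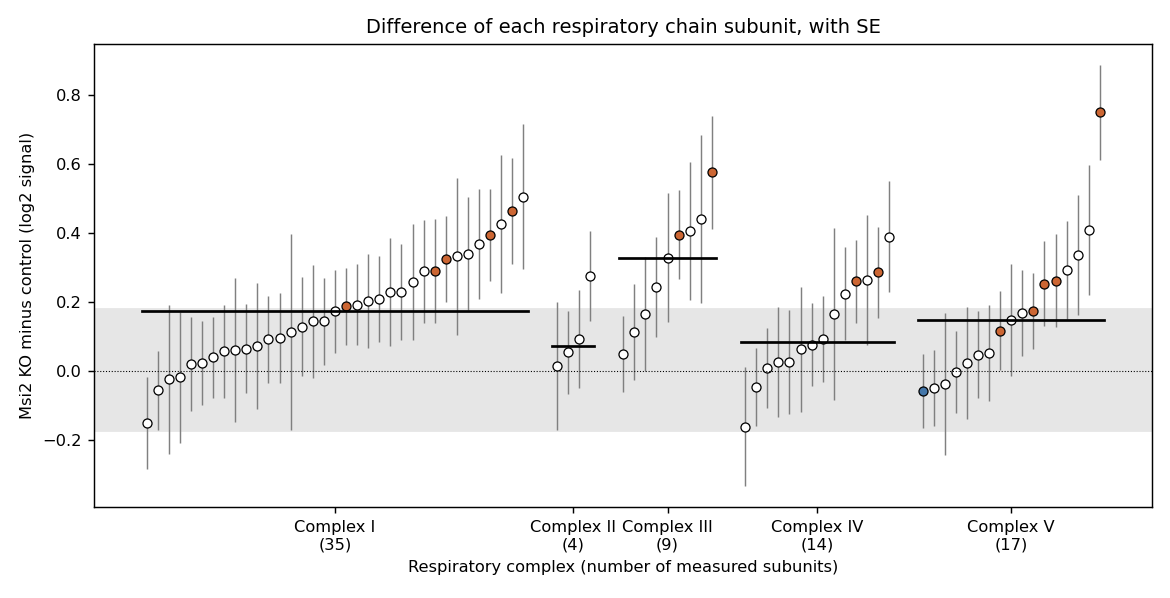
Difference between Msi2 KO and control (log2 signal, points, with SE as bars, n = 4 arrays per group) for the 79 measured subunits, ordered by size within each complex; black lines are the medians and the grey band holds the middle quartiles of all genes. Filled orange points are the 14 subunits whose KO arrays all lay above the controls and the blue point is Atp5h, whose KO arrays all lay below; complex III has the highest median (0.33) and Atp5g1 the largest difference (0.75).

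The complexes differed in the size of the shift. The median difference was 0.33 for complex III (9 of 9 members higher), 0.17 for complex I (31 of 35 higher), 0.15 for complex V (13 of 17 higher), 0.09 for complex IV (12 of 14 higher) and 0.07 for complex II (4 of 4 higher). Averaged over its members, each complex was also compared array by array, relative to the mean of the 4 controls. Complex I stood at 0.08, 0.11, 0.31 and 0.22 on Msi2 KO 1 to Msi2 KO 4, and its controls lay between -0.03 and 0.02. Complex III stood at 0.08, 0.22, 0.53 and 0.38 on the same arrays, with controls between -0.11 and 0.06. Complex V stood at 0.06, 0.07, 0.30 and 0.25, with controls between -0.04 and 0.04. For these 3 complexes all KO arrays lay above all controls, and Msi2 KO 3 and Msi2 KO 4 lay well above Msi2 KO 1 and Msi2 KO 2. Complex II (KO 0.05 to 0.14, controls -0.06 to 0.09) and complex IV (KO 0.04 to 0.23, controls -0.12 to 0.08) overlapped between the groups. These are descriptions, and no test of a complex or of one complex against another was made. The difference of a subunit also varied with the signal of its probe set, as given further below. The part of that signal in the order of the complexes was not tested. Without Msi2 KO 3 the median of complex III was 0.21. Complex IV had a median of 0.04 without Msi2 KO 4 and 0.05 without control 3. The median of complex II was 0.13 without Msi2 KO 3 or without control 2, and 0.04 without control 4.

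**Figure D2:**
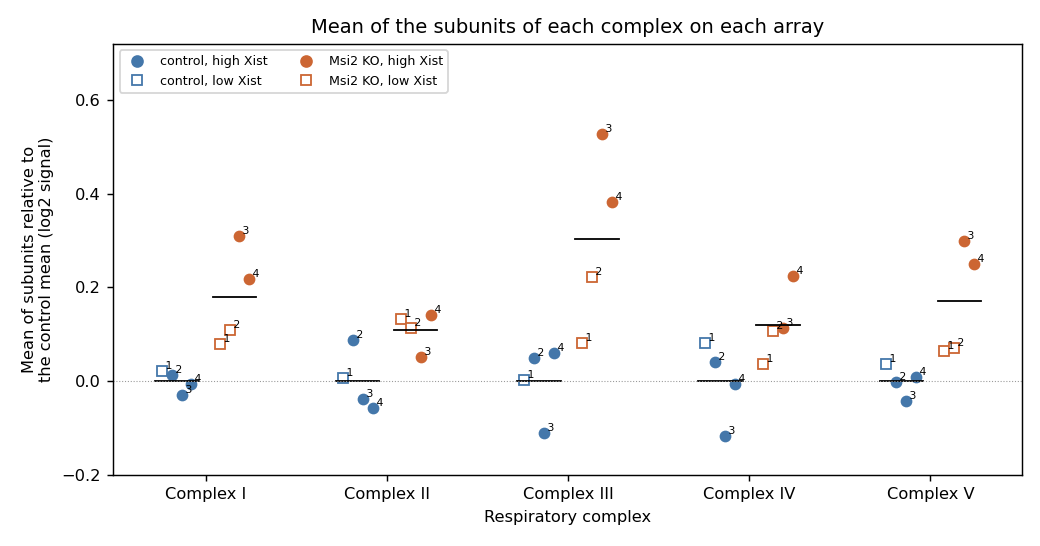
Mean log2 signal of the measured subunits of each complex on each array, relative to the mean of the 4 controls (y axis); blue is control, orange Msi2 KO, open squares are arrays with low Xist, digits are replicate numbers and black lines are group means. The KO arrays lie above every control for complexes I, III and V, with Msi2 KO 3 (0.31, 0.53 and 0.30) and Msi2 KO 4 (0.22, 0.38 and 0.25) on top.

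Promoter sequences were read from RefSeq on GRCm38.p6 for some members without overlap between the groups, because the factors that act on respiratory promoters have known motifs. NRF1 and the ETS family factor GABP are the classical activators of nuclear respiratory genes. Of the 83 subunits, 67 matched a promoter window (250 bases before to 50 after the start). A gene with several windows counted if any of them held the motif. The motif of NRF1 (GCGCA, then any base, then GCGC, on either strand) was found in 15 of these 67 genes (22.4%). It was found in 12.2% of the 8747 measured genes with a window and in 5.2% of all 27025 genes with a window. The ETS core CCGGAAG was found in 17 (25.4%), against 21.1% and 9.9%, and the YY1 motif AANATGGCG in 9 (13.4%), against 6.4% and 2.8%, each on either strand. Among the 13 matched subunits whose KO arrays all lay above the controls, 5 held the NRF1 motif, and among the other 52 measured and matched subunits 10 did. The same split was 4 of 13 against 13 of 52 for ETS and 3 of 13 against 6 of 52 for YY1, and no difference between these shares was tested. The stretches below lie just upstream of the start used for the window, 5′ to 3′, and capitals mark an NRF1 or ETS match. Cox6a1 is at chr5:115348959-115349140, Ndufa8 at chr2:36049339-36049388, Atp5k at chr5:108434420-108434469, Uqcr11 at chr10:80406861-80406907 and Atp5g1 at chr11:96075632-96075711, all on the minus strand, and Ndufs7 at chr10:80249369-80249448 on the plus strand. The windows of Atp5g1 and Ndufs7, among the largest differences of their complexes, held neither motif upstream of the start used. Their last 80 bases before it are shown without capitals. Both genes are annotated further upstream, Atp5g1 to chr11:96075694 and Ndufs7 from chr10:80249105. The Ndufs7 stretch and part of the Atp5g1 stretch thus lie inside the annotated gene. The lack of a motif holds for these windows only.
Cox6a1: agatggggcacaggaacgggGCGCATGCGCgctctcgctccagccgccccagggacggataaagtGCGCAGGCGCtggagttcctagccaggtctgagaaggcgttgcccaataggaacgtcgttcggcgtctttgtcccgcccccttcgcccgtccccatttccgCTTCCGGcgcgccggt
Ndufa8: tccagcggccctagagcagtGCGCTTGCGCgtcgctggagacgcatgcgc
Atp5k: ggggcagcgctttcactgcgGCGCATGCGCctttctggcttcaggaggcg
Uqcr11: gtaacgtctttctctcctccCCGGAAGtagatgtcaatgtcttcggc
Atp5g1: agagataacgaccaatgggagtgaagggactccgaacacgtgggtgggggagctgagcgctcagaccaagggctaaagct
Ndufs7: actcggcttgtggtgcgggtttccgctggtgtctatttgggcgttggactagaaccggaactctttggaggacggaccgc
A match is a match of letters and not a measured binding site. Cox6a1 held 2 NRF1 matches and 1 ETS match in this stretch, and the other 3 with capitals held 1 match each.

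In complex I the members with the smallest unadjusted p were iron-sulphur subunits next to the ubiquinone site, while the largest difference was that of the dim Ndufb1 (0.51). Ndufs7, which carries the last iron-sulphur cluster before ubiquinone, read 10.96, 10.85, 10.63 and 10.81 on control 1 to control 4 and 10.96, 11.44, 11.47 and 11.25 on Msi2 KO 1 to Msi2 KO 4. Its groups did not overlap, but Msi2 KO 1 and control 1 were equal to 2 decimals. The difference was 0.46 ± 0.15 (SE, n = 4 each), or 1.38-fold, with a 95% confidence interval of 0.12 to 0.81 and a limma adjusted p of 0.346. Ndufs8, which holds a pair of further clusters, read 10.60, 10.62, 10.47 and 10.35 on the controls and 10.83, 11.13, 10.87 and 10.79 on the KO arrays. All 4 of its KO arrays were clear of the controls, with a difference of 0.39 ± 0.13 (SE; limma adjusted p 0.363). Both genes repeated the difference on other probe sets, Ndufs7 by 0.44 on its second, and Ndufs8 by 0.36 to 0.45 on 4 of its 5 others and by 0.14 on the dimmest. Ndufs3, another core subunit of the same arm, read 9.40 to 9.76 on the controls and 9.74 to 9.78 on the KO arrays, which overlapped.

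The NADH-oxidising tip of complex I had smaller or less even differences. Ndufv1, which binds the flavin that takes up electrons from NADH, differed by 0.20 ± 0.14 (SE) and Ndufv2 by 0.07 ± 0.13. Ndufs1, the largest subunit of the complex, read 8.33 to 8.61 on the controls and 8.27, 8.72, 9.43 and 8.69 on the KO arrays, so that its difference of 0.33 ± 0.23 (SE) came to 0.12 without Msi2 KO 3. None of these 3 separated the groups.

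The accessory subunits of complex I surround this core and serve its assembly and stability. Of the 29 measured, 25 were higher in KO, with a median of 0.15. Ndufa7 read 9.33 to 9.59 on the controls and 9.64 to 9.87 on the KO arrays, a difference of 0.33 ± 0.12 (SE; limma adjusted p 0.396) without overlap. Ndufa8 read 9.35 to 9.88 on the controls and 9.91 to 10.11 on the KO arrays, also without overlap, but by a small margin. Ndufa4 carries a complex I name and is counted here among the 29 by its symbol, but has since been assigned to complex IV. It read 11.69 to 11.78 on the controls and 11.83 to 12.01 on the KO arrays, a difference of 0.19 ± 0.11 (SE). Ndufab1, the mitochondrial acyl carrier protein, differed by 0.37 ± 0.16 (SE), and its groups overlapped.

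Some accessory members were dim or split between probe sets. Ndufb1 had a difference of 0.51 ± 0.21 (SE) on a dim probe set (5.09 to 6.33), with overlap. Ndufb4 was near background on all arrays (3.87 to 4.76). Ndufb2 differed by 0.43 and 0.46 on its 2 bright probe sets and by -0.14 on a dim probe set, and the first of these was 0.27 without control 1. The 4 members with a lower mean in KO were Ndufs4 (-0.15 ± 0.13, SE), Ndufb7 (-0.05), Ndufb3 (-0.02) and Ndufa9 (-0.02), and all overlapped. Ndufb3 was low on a single array, Msi2 KO 2 (9.99, other KO arrays 10.78 to 11.002).

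Complex II, succinate dehydrogenase, is shared with the tricarboxylic acid cycle and has only nuclear subunits. Sdhb, its iron-sulphur subunit, read 10.07, 9.94, 9.72 and 9.90 on control 1 to control 4 and 10.15, 10.19, 10.34 and 10.05 on Msi2 KO 1 to Msi2 KO 4. The highest control lay just above the lowest KO array, and the difference was 0.28 ± 0.13 (SE; limma adjusted p 0.464; two-sided exact permutation p 0.0571). The flavoprotein Sdha (0.09 ± 0.14, SE) and the membrane anchors Sdhc (0.02 ± 0.19) and Sdhd (0.06 ± 0.12) differed by less than their errors. Sdhc varied most on the KO arrays, from 10.67 on Msi2 KO 3 to 11.57 on Msi2 KO 4, around controls of 11.08 to 11.11.

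Complex III, the cytochrome bc1 complex, had the highest median. Cyc1, cytochrome c1, which hands electrons to cytochrome c, read 9.98, 9.86, 9.64 and 10.05 on the controls and 10.22, 10.46, 10.80 and 10.36 on Msi2 KO 1 to Msi2 KO 4. Every KO array was above every control, and the difference of 0.58 ± 0.16 (SE), 1.49-fold, had a 95% confidence interval of 0.21 to 0.95 and a limma adjusted p of 0.295. It came to 0.46 without Msi2 KO 3. Uqcr11, a small accessory subunit, read 9.99, 9.96, 9.81 and 9.89 on the controls and 10.14, 10.20, 10.41 and 10.47 on the KO arrays. Its groups did not overlap either, with a difference of 0.40 ± 0.13 (SE; limma adjusted p 0.342). The two-sided exact permutation p of both genes was 0.0286, the smallest that 4 arrays against 4 allow. Every gene without overlap has this p, so it only restates the separation. Of all genes, 3.63% were without overlap on the higher side and 3.48% on the lower.

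The Rieske iron-sulphur protein Uqcrfs1, which takes electrons from ubiquinol, read 8.67 to 9.03 on the controls and 8.71, 9.37, 9.64 and 9.19 on the KO arrays. Msi2 KO 1 lay among the controls, and the difference was 0.41 ± 0.20 (SE), or 0.27 without Msi2 KO 3. Uqcr10 differed by 0.44 ± 0.24 (SE), with control 4 (10.49) among the KO arrays (9.83 to 10.51). The core proteins Uqcrc1 (0.33 ± 0.19, SE) and Uqcrc2 (0.11 ± 0.14), which face the matrix, and Uqcrh (0.24), Uqcrq (0.17) and Uqcrb (0.05) overlapped between the groups. Without Msi2 KO 3 Uqcrc1 came to 0.21 and Uqcrc2 to 0.04. Uqcrq differed by -0.30 on its second, dim probe set (6.45 in controls and 6.15 in KO).

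**Figure D3:**
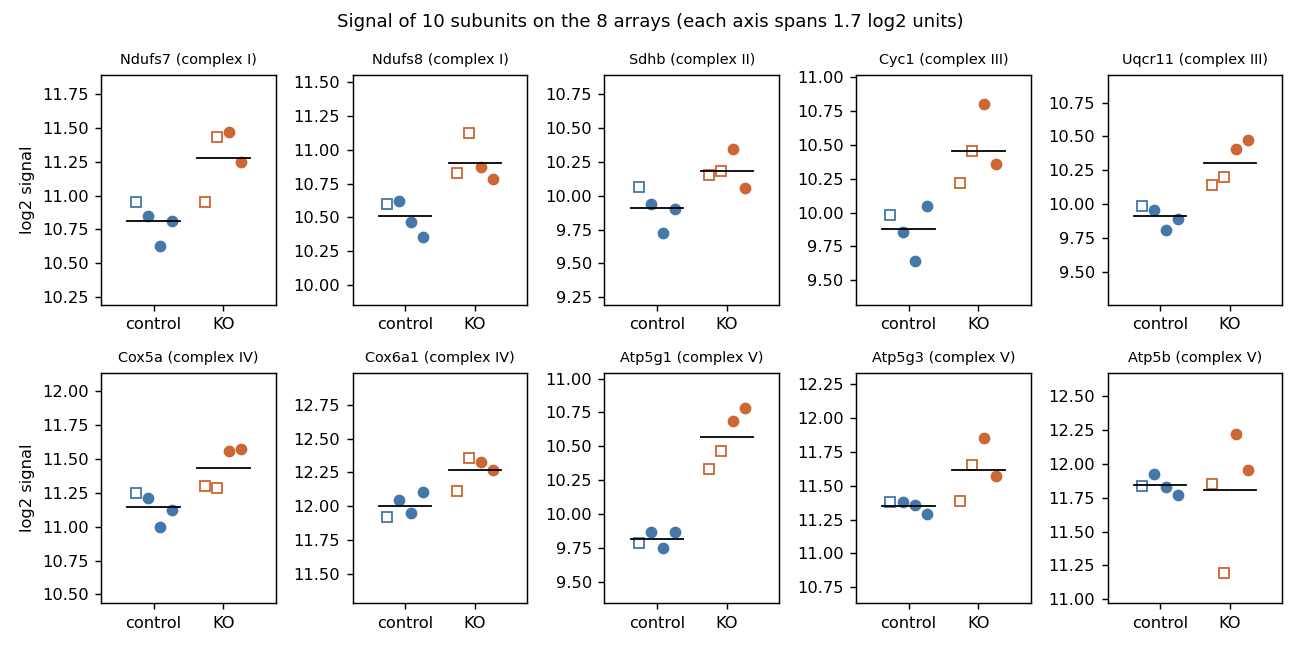
Log2 signal of 10 subunits on the 8 arrays (blue control, orange Msi2 KO, open squares low Xist, black lines group means, each axis spanning the same range). Atp5g1 shows the widest gap (controls 9.75 to 9.87, KO 10.34 to 10.78), while Atp5b overlaps and is lowest on Msi2 KO 2 (11.20).

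In complex IV, cytochrome c oxidase, the catalytic subunits are made in the mitochondrion and the nuclear ones regulate and stabilise the enzyme. Cox5a read 11.25, 11.21, 10.995 and 11.12 on control 1 to control 4 and 11.30, 11.29, 11.56 and 11.57 on Msi2 KO 1 to Msi2 KO 4. The groups lay apart by a narrow margin, with a difference of 0.29 ± 0.13 (SE; limma adjusted p 0.453). Cox6a1 read 11.92 to 12.11 on the controls and 12.12 to 12.36 on the KO arrays, again without overlap, with a difference of 0.26 ± 0.12 (SE; limma adjusted p 0.456). Cox8a had the largest difference of the complex, 0.39 ± 0.16 (SE), but control 1 (10.26) was above the lowest KO array (10.22). Its second bright probe set differed by 0.42 without overlap, and its dim probe set (3.69 in both groups) by -0.00.

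Other nuclear subunits of complex IV differed little. Cox4i1, the common isoform of the largest nuclear subunit, read 11.47 to 11.68 on the controls and 11.51 to 11.84 on the KO arrays. Its difference of 0.09 ± 0.13 (SE) was within its error, as were those of Cox5b (0.01), Cox6b1 (0.08), Cox6c (0.03) and Cox7a2l (-0.04), a factor of supercomplex assembly. Cox7a2 differed by 0.23 ± 0.14 (SE). Cox5b turned to -0.02 under repeated quantile normalization or median centring.

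Of the isoforms restricted to other tissues, several were dim or listed at 0. Cox4i2, the lung isoform, Cox7b2 and Cox8b, the heart and muscle isoform, were listed at 0. Cox7a1, of heart and muscle, was at 3.55 to 4.21 and Cox8c, of testis, at 4.37 to 4.93. The muscle isoform Cox6a2 was measured at 5.96 to 6.72 and differed by -0.16 ± 0.17 (SE), or -0.02 without Msi2 KO 3. Cox6b2, the testis isoform, was at 8.63 to 9.79 and differed by 0.17 ± 0.25. Both probe sets of Cox7c were near background (mean 4.50 in controls on the brighter), and it differed by 0.26 ± 0.19 (SE). Without the 4 members near background in either group (a mean under 5: Cox7a1, Cox7c, Cox8c and Ndufb4), the median over the other 75 subunits was again 0.17.

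Complex V held the largest single difference. Atp5g1, a gene for the c subunit of the membrane rotor, read 9.79, 9.87, 9.75 and 9.87 on control 1 to control 4 and 10.34, 10.47, 10.68 and 10.78 on Msi2 KO 1 to Msi2 KO 4. The gap between the groups was wider than the range within either group. Its two-sided exact permutation p of 0.0286 is that of any gene without overlap. The difference was 0.75 ± 0.14 (SE, n = 4 each), or 1.68-fold, and its limma adjusted p was 0.226. The difference had a 95% confidence interval of 0.44 to 1.06. It was 0.71 without Msi2 KO 3 and lay between 0.62 and 0.91 over all alternatives (adjusted p 0.0946 to 0.657).

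The c subunit is encoded by 3 genes that differ in the targeting sequence and give the same mature protein. Atp5g3 read 11.29 to 11.38 on the controls and 11.38, 11.66, 11.85 and 11.57 on Msi2 KO 1 to Msi2 KO 4, a difference of 0.26 ± 0.13 (SE) whose groups touched at Msi2 KO 1. Atp5g2 read 10.65 to 10.82 on the controls and 10.75, 10.83, 10.58 and 11.28 on the KO arrays, which overlapped, with a difference of 0.15 ± 0.16 (SE) that was 0.0093 without Msi2 KO 4. Averaged over the 3 genes, the KO arrays 1 to 4 lay 0.20, 0.36, 0.41 and 0.58 above the controls.

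In the catalytic head of the ATP synthase the main subunits differed by less than their errors. The alpha subunit Atp5a1 read 12.76 to 12.83 on the controls and 12.69 to 12.81 on the KO arrays, a difference of -0.05 ± 0.11 (SE). The beta subunit Atp5b, which carries the catalytic site, differed by -0.04 ± 0.21 (SE), with KO arrays from 11.20 (Msi2 KO 2) to 12.22 (Msi2 KO 3) around controls of 11.77 to 11.92. Without Msi2 KO 2 the difference of Atp5b was 0.17. The gamma subunit Atp5c1 differed by 0.05 ± 0.14 (SE) and epsilon, Atp5e, by 0.17 ± 0.13, while delta, Atp5d, differed by 0.29 ± 0.14 with overlap. The 95% confidence interval was -0.50 to 0.43 for Atp5b and -0.29 to 0.20 for Atp5a1, so a difference of the size seen for Atp5g1 lies outside both. The difference between these genes itself was not tested.

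Among the other ATP synthase subunits, Atp5o of the peripheral stalk read 10.60 to 10.67 on the controls and 10.69 to 11.01 on the KO arrays, with a difference of 0.25 ± 0.12 (SE) and no overlap. The membrane subunits Atp5j2 (0.17 ± 0.11, SE) and Atp5k (0.12 ± 0.12, and 0.07 without Msi2 KO 3) also separated the groups, by narrow margins. Atp5h, another stalk subunit, was the member whose KO arrays all lay below the controls. It read 12.40 to 12.45 on the controls and 12.34 to 12.39 on the KO arrays, a difference of only -0.06 ± 0.11 (SE). Atp5mpl had a larger difference of 0.41 ± 0.19 (SE) but overlapped. No member of complex V passed limma's adjusted threshold. In limma, 1 of 17, Atp5g1, had an unadjusted p under 0.05 on the higher side (5.88%), a share near the background of 5.74%. The KO arrays all lay above the controls for 5 of the 17 (29.4%; background 3.63%) and all below them for 1 (5.88%; background 3.48%).

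The shift was uneven between arrays of like Xist. On the high-Xist arrays (control 2 to control 4 against Msi2 KO 3 and Msi2 KO 4) 72 of 79 subunits were higher in KO, with a median of 0.24. On the low-Xist arrays (control 1 against Msi2 KO 1 and Msi2 KO 2) 45 of 79 were higher, with a median of 0.05, and over all genes the medians were 0.02 and -0.02. The medians of the high-Xist and low-Xist arrays were 0.24 and 0.08 for complex I, 0.54 and 0.14 for complex III, 0.18 and 0.00 for complex IV, and 0.23 and -0.02 for complex V. For complex II they ran the other way, at 0.03 and 0.11. For 43 subunits (54.4%) both comparisons were above 0, where 28.2% of all genes had this, and for 29 only the high-Xist comparison was. The difference was smaller on the low-Xist arrays for 63 of the 79 subunits, and the share over all genes was not taken. Control 1, the only control there, had the highest subunit mean of the controls (0.03). The low-Xist comparison has a single control array, so it has no replicate check on that side. For the same reason a limma interaction of KO with Xist class cannot decide whether the classes differ.

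**Figure D4:**
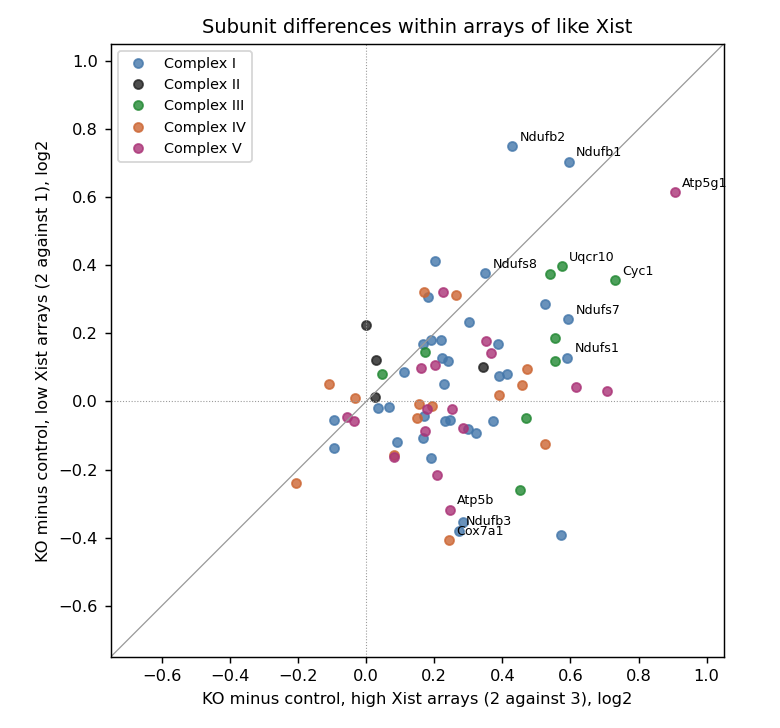
Difference between Msi2 KO and control for the 79 measured subunits on the high-Xist arrays (x axis, 2 KO against 3 controls, log2) and on the low-Xist arrays (y axis, 2 KO against 1 control, log2), coloured by complex, with the diagonal in grey. Most points lie right of 0 (72 of 79) and below the diagonal (63 of 79, with no share over all genes taken). Atp5g1, Cyc1, Ndufs7 and Ndufs8, whose KO arrays all lay above the controls, necessarily lie above 0 on both axes.

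For Atp5g1, Cyc1, Ndufs7 and Ndufs8 every KO array lay above every control, so both comparisons had to be above 0. Atp5g1 differed by 0.91 on the high-Xist and 0.62 on the low-Xist arrays, Cyc1 by 0.73 and 0.36, Ndufs7 by 0.59 and 0.24, and Ndufs8 by 0.35 and 0.38. In all, 13 of the 79 subunits (16.5%) differed by more than 0.2 in both, against 11.5% of all genes. Atp5b was at 0.25 on the high-Xist arrays and below 0 on the low-Xist arrays.

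Markers of other cells differed between the groups too, in both directions. The mean of the erythroid markers was 7.79, 8.21, 9.58 and 8.49 on Msi2 KO 1 to Msi2 KO 4 and 6.86 to 8.02 on the controls, and 11 of the 11 measured markers were higher in KO. Hba-a1 and Alas2 of that list were at 0, and Hbb-b1 and Hbb-bt were not analysed here. The mean over all 79 subunits was 0.07, 0.11, 0.28 and 0.24 on the same arrays. The order of both on the KO arrays was thus Msi2 KO 3, then Msi2 KO 4, Msi2 KO 2 and Msi2 KO 1. The first principal component had the same order, as did the Msi2 signal from the lowest up. Among the controls the order was not shared: control 1 had the lowest erythroid mean and the highest subunit mean (0.03). The mast cell and basophil markers ran from 5.83 to 6.96 on the KO arrays and from 4.87 to 5.97 on the controls. Of 6 measured 4 were higher, and Cma1 was at 0. Fcer1a (2.60 ± 0.37, SE) and Cpa3 (1.87 ± 0.42) were higher on all KO arrays. Mcpt8 (-0.50 ± 0.46) and Tpsb2 (-0.0031 ± 0.13) had lower means. The granulocyte and monocyte markers ran from 9.30 to 9.70 in KO and from 8.55 to 9.54 in controls. Of 10 measured 8 were higher, and Itgam was at 0. Cd68 was higher on all KO arrays (1.09 ± 0.26, SE), while Lyz2 was lower on all of them (-0.79 ± 0.22). Both measured B cell markers were lower, Vpreb1 by -1.19 and Cd79b by -0.42, and their mean ran from 6.60 to 7.67 in KO and from 7.36 to 8.50 in controls, with Cd79a, Pax5, Ebf1 and Cd22 at 0. The megakaryocyte markers were split, 2 of 4 higher (7.19 to 8.43 in KO, 6.68 to 7.67 in controls; Gp1bb and Gp9 at 0). Of the endothelial and stromal markers 1 of 3 was higher (5.18 to 5.92 in KO, 5.54 to 5.96 in controls), with Kdr, Col1a1, Lepr and Cxcl12 at 0. The only T and NK cell marker measured, Nkg7, differed by 0.14. The part of cell makeup in the subunit differences was not tested.

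The other genes of the pathway were taken from lists of assembly factors, feeder enzymes and regulators. Of 45 measured assembly factors, 36 were higher in KO, with a median of 0.10, and the KO arrays lay above the controls for 3 (6.67%; background 3.63%). At an unadjusted limma p under 0.05, 2 of the 45 were higher (4.44%; background 5.74%) and 0 lower (background 5.66%). Bcs1l, which inserts the Rieske protein into complex III, had a mean of 7.65 ± 0.26 (SD, n = 4) in the control group and 8.42 ± 0.18 in the KO group, a difference of 0.77 ± 0.16 (SE; limma adjusted p 0.230) without overlap. Uqcc2, another complex III factor, differed by 0.38 ± 0.15 (SE), also without overlap. The 8 Ndufaf factors of complex I differed by -0.13 to 0.13. The median of the assembly factors was 0.03 without Msi2 KO 3, 0.07 without control 3, 0.17 without Msi2 KO 1 and -0.14 on the low-Xist arrays.

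Of 17 measured genes of the tricarboxylic acid cycle and pyruvate dehydrogenase, 15 were higher, with a median of 0.18. Citrate synthase, Cs, the entry enzyme of the cycle, differed by 0.41 ± 0.16 (SE) without overlap, and Suclg2 by 0.20 ± 0.13 with overlap. That median was 0.07 without Msi2 KO 3. Of 14 genes of ubiquinone synthesis and cytochrome c, 12 were higher, with a median of 0.22. Coq4 (0.52 ± 0.19, SE, with overlap) and Coq9 (0.39 ± 0.17, without overlap, but 0.245 without Msi2 KO 3) led, and Cycs, cytochrome c itself, differed by 0.04. The median was 0.09 without Msi2 KO 3, and it was 0.11 without control 4, 0.14 without control 3 and -0.14 on the low-Xist arrays. None of these genes passed limma's adjusted threshold.

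Regulators and carriers showed no common direction. Of 22 measured regulators 11 were higher and 11 lower, and their median of 0.06 was -0.10 among genes above the median level only. Singly, Nrf1 differed by -0.19 ± 0.19, Gabpa by -0.17 ± 0.13 and Tfam, which packages mitochondrial DNA, by -0.19 ± 0.17 (SE). Gabpb1, the partner of Gabpa, was lower on all KO arrays, by -0.32 ± 0.12 (SE; limma adjusted p 0.386). Ssbp1, which binds single-stranded mitochondrial DNA, was also lower on all KO arrays, by -0.21 ± 0.12, so that 2 of the 22 were below all controls (9.09%; background 3.48%). On the higher side 4 regulators had an unadjusted p under 0.05 (18.2%; background 5.74%), Tfb2m (0.67 ± 0.23, SE) and Polrmt (0.69 ± 0.27), which transcribe mitochondrial DNA, the coactivator Ppargc1b (0.45 ± 0.17) and the RNA-binding protein Slirp (0.34 ± 0.14). Polrmt was highest on Msi2 KO 2 (8.50, other KO arrays 7.04 to 7.74), and its difference was 0.42 without that array. Of 16 carriers and other electron entry enzymes 9 were higher, with a median of 0.06 that was -0.0037 without Msi2 KO 3. Slc25a5, an ADP/ATP carrier, differed by 0.32 ± 0.15 (SE) and Prodh, which oxidises proline, by -0.43 ± 0.20. Slc25a5 came to 0.20 without Msi2 KO 3 and Prodh to -0.27 without control 1.

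The size of the difference varied with the signal of the probe set. Subunits with a mean signal of 5 to 10 had a median of 0.31 (12 genes), those of 10 to 11 a median of 0.21 (22 genes), those of 11 to 12 a median of 0.15 (31 genes) and those of 12 or more a median of 0.02 (10 genes). Over all genes the same classes had medians of 0.02, -0.02, -0.03 and -0.01. The part of the signal range in this order was not tested. Across probe sets, 133 of the 153 measured probe sets of the subunits were higher in KO, and of the 74 that did not represent their gene 64 were, with a median of 0.17. Of the 44 subunits with more than 1 measured probe set, 32 had all of them on the same side of 0. For 21 of the 79 subunits the representing probe set can match several transcripts, so near-identical copies may add to it.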

How the data were processed

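RNA of LSK cells from 4 control and 4 Msi2 KO mice was measured on 8 arrays. The authors made the deposited log2 signals of the probe sets with RMA, per the submitters' processing notes, and the sources used here give no version. Of 45101 probe sets, 20664 (45.8%) were 0 on all arrays through an unstated step and were left out. Probe sets of 1 gene were named through gene IDs with RefSeq of GRCm38.p6, and the brightest stood for its gene. Groups were compared with limma 3.58.1 in R 4.3.3 (lmFit, eBayes, two-sided, Benjamini-Hochberg over 10720 genes), tested on simulated data. Exact permutations used all 70 assignments. Members, lists and tests were chosen with earlier results of these data known. Named were the 4 subunits per complex with the smallest p, those without overlap between groups, core subunits, isoform families, subunits whose probe sets disagreed, and 2 genes per other list. Further regulators, Ndufa and Ndufb members and cytochrome c were named after their values were seen. Alternatives covered normalization, dim genes, choice of probe set, variance model, array weights, Xist, replicate block and left-out arrays. The number of arrays limits the precision.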

Additional observations from a re-analysis of the deposited data

Results flagged for a closer look

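Among the named genes and list means, 136 groups of 4 arrays were checked for a single array far from the other 3, and 5 had one; chance alone gives about 1 in 20. Msi2 KO 3 was the high array for 3 of them: Atp5k (12.71, other KO arrays 12.49 to 12.51), Ndufa8 (10.11, others 9.91 to 9.94) and Coq9 (9.22, others 8.59 to 8.66). Control 3 was low for Cox6b1 (11.94, other controls 12.15 to 12.19), and control 2 was high for Cox6b2 (9.40, others 8.87 to 8.93).

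For 2 list means the KO arrays of the low-Xist and high-Xist classes lay on opposite sides of their own controls. The mean of the assembly factors was -0.13 to -0.04 on the low-Xist KO arrays and 0.18 to 0.33 on the high-Xist ones, a gap of -0.34 between the class means. The mean of the carriers and other electron entry enzymes was -0.09 to -0.06 against 0.15 to 0.25, a gap of -0.28. Neither difference was tested.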

How the results depend on the processing

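No subunit passed limma's adjusted threshold under any alternative run across all arrays, including the count without each array in turn (0 to 0), and leaving out an array left 0 to 1 genes in all, the 1 gene being Zg16 without Msi2 KO 1. A covariate for Xist let 4 genes pass, which were Mt1, Nhsl1, Fcer1a and Fscn1. With the replicate number as a block 0 genes passed. In this balanced design the block cannot change a mean difference, so all list medians stayed as they were (0.17 over the subunits). The numbers did not pair the samples: deviations of same-numbered arrays correlated at 0.14, -0.17, 0.08 and -0.02, and only the arrays of number 3 correlated best with their own number.

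Without each array in turn the median difference ran from 0.13 to 0.19 over the subunits, from 0.12 to 0.20 for complex I, from 0.04 to 0.13 for complex II, from 0.21 to 0.37 for complex III, from 0.04 to 0.12 for complex IV and from 0.13 to 0.18 for complex V. For the other lists it ran from 0.03 to 0.17 for the assembly factors (lowest without Msi2 KO 3), from 0.07 to 0.25 for the tricarboxylic acid cycle, from 0.09 to 0.26 for ubiquinone and cytochrome c, from -0.0037 to 0.15 for carriers and other electron entry, and from -0.052 to 0.20 for the regulators. The regulators' median was -0.10 without genes below the median level, -0.0020 with the mean of all probe sets and -0.016 with array weights.

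The splits by Xist and the removal of genes with a group mean under 5 were chosen after seeing the data. The latter put the regulators at -0.024. High-Xist arrays alone gave 0.54 for complex III, 0.18 for complex IV and 0.25 for carriers and other electron entry. Low-Xist arrays alone gave 0.050 over the subunits, 0.076 for complex I, 0.14 for complex III, 0.0011 for complex IV, -0.022 for complex V, -0.14 for the assembly factors, -0.14 for ubiquinone and cytochrome c, and -0.063 for carriers and other electron entry.

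Single subunits with a mean difference near 0 changed sign. Cox5b came to -0.023 under quantile normalization, -0.019 under median centring, -0.017 with the mean of probe sets, -0.033 without shared probe sets, -0.0063 with the Xist covariate and -0.16 on low-Xist arrays. Cox8c came to -0.0013 under median centring, -0.021 with the Xist covariate and -0.032 on high-Xist arrays, and Sdhc to -0.012 under median centring. The mean of probe sets gave 0.012 for Atp5a1, -0.082 for Atp5c1, 0.0094 for Cox7a2l and -0.069 for Uqcrq, and leaving out shared probe sets gave -0.22 for Atp5c1 and -0.30 for Uqcrq. Atp5b was 0.058 with the Xist covariate and 0.25 on high-Xist arrays. Low-Xist arrays alone gave -0.022 for Atp5c1, -0.022 for Atp5g2, -0.012 for Cox4i1, -0.048 for Cox6b1, -0.13 for Cox6b2, -0.41 for Cox7a1, 0.052 for Cox7a2l, -0.081 for Ndufv1, -0.17 for Ndufv2 and -0.26 for Uqcrq. Without each array in turn the range crossed 0 for Sdhd (-0.0023 to 0.092), Cox5b (-0.015 to 0.056), Cox7a1 (-0.026 to 0.21), Cox8c (-0.036 to 0.15), Sdhc (-0.14 to 0.16), Atp5b (-0.18 to 0.17), Atp5c1 (-0.043 to 0.11) and Cox6b2 (-0.030 to 0.35). The cause of these changes was not tested.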
